A study of Bos indicus with 6 samples.

Results

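Described here are 3 rows of an endometrial RNA-seq table, the identifiers assigned to the antioxidant enzymes catalase (CAT, ENSBTAG00000020980), superoxide dismutase 1 (SOD1, ENSBTAG00000018854) and superoxide dismutase 2 (SOD2, ENSBTAG00000006523). They are 3 of 24616 gene identifiers in the table. They were chosen by identifier and not by a rule on their values, but with earlier results of these data known. All 3 were among the 12535 genes that passed the filter on low values, a mean normalised read count of at least 1 over the 6 libraries. A normalised read count is a number of reads divided by a size factor for its library. The names come with the list of identifiers. They could not be checked, because the RefSeq gene table used here gives no Ensembl identifiers, so 0 of the 24616 identifiers could be matched. That table, for the Bos indicus assembly NIAB-ARS_B.indTharparkar_mat_pri_1.0, has 1 protein-coding gene under each symbol, with CAT between ABTB2 and ELF5, SOD1 between SCAF4 and TIAM1, and SOD2 between FNDC1 and WTAP. The rows are therefore called CAT-assigned, SOD1-assigned and SOD2-assigned.

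The tissue was the endometrium of 6 healthy, multiparous, nonlactating Nelore cows (a zebu beef breed), with 3 cows in each of 2 regimens of a trial of 74 cows. Both regimens began with presynchronisation, then estradiol benzoate and a device releasing progesterone on day -10, and used GnRH on day 0, with the uterus sampled at slaughter on day 7. In LF-LCL (large follicle, large corpus luteum; 35 cows in the trial) the prostaglandin analogue cloprostenol was also given on day -10, and the device was removed, with cloprostenol, 42 to 54 hours before GnRH. In SF-SCL (small follicle, small corpus luteum; 39 cows) no cloprostenol was given on day -10 and the corresponding interval was 30 to 36 hours. The sources used here give neither the age of the cows nor the basis on which these 6 were picked. The question addressed is whether the endocrine setting around ovulation was accompanied by a different level of these transcripts in the uterine lining.

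Superoxide dismutases convert superoxide, a by-product of respiration and of oxidase enzymes, into hydrogen peroxide and oxygen. SOD1 is the copper-zinc enzyme of the cytosol, and SOD2 is the manganese enzyme of the mitochondrial matrix. Catalase, a haem enzyme of peroxisomes, breaks hydrogen peroxide down to water and oxygen, so the enzymes act in sequence. In the endometrium this system has long been studied in relation to ovarian steroids and to the redox state of the uterine lumen.

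The libraries held 2896663 to 7811332 reads assigned to genes, and 1 read was worth 0.562 normalised reads in the deepest library against 1.55 in the shallowest. The first principal component, with 40.1% of the variance over 9517 genes, separated the regimens, and SF-SCL replicate 3 (score -7.89) stood apart from the other SF-SCL libraries (-29.3 and -33.7). Results are therefore also given without that library. No pair of libraries agreed within sampling noise (chi-square per degree of freedom of at least 8.69). Each cow counts as 1 replicate because the labels describe separate cows. Replicate numbers follow the order of deposition and pair no cows. In bulk tissue, fewer cells of a type and less RNA per cell cannot be told apart, and since identifiers could not be paired with names, no epithelial, stromal, blood or immune marker was read.

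None of the 3 rows passed the test between regimens, although each had a higher mean in LF-LCL. The fitted fold was 1.45 for the CAT-assigned row, 1.38 for the SOD2-assigned row and 2.13 for the SOD1-assigned row. In the limma fit across all tested genes, 0 of the 3 were called at an adjusted p under 0.05, against a background of 0.965% of all 12535 genes. At an unadjusted p under 0.05, 1 of the 3 passed (the CAT-assigned row), against 17.1% of all tested genes, or 9.33% counting only those higher in LF-LCL. DESeq2 called 0 of the 2 to which it gave an adjusted p (none was given to the SOD1-assigned row), against 6.35% of the genes it adjusted, and edgeR called 0 of the 2 that passed its own filter, against 0.835%. The median log2 fold change of the 3 rows was 0.54, that of the CAT-assigned row, and the median over all tested genes was -0.01. A fitted change above 0 was found for all 3 rows and for 48.6% of all tested genes.

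The CAT-assigned row carried the most reads of the 3 and is the most precisely measured. Its normalised read count was 2244, 2864 and 2181 in LF-LCL replicates 1, 2 and 3. In SF-SCL replicates 1, 2 and 3 it was 2045, 1500 and 1495. Every LF-LCL cow was above every SF-SCL cow, a separation with LF-LCL on top that 11.8% of all tested genes also had (22.8% in either direction). The gap between the groups was narrow, with the lowest LF-LCL library 136 above the highest SF-SCL library. The 95% counting intervals of these nearest libraries overlapped (2074 to 2292 in LF-LCL replicate 3 and 1945 to 2149 in SF-SCL replicate 1). SF-SCL replicate 1, rather than the library that stood apart on the principal component, was the SF-SCL cow closest to LF-LCL for this row.

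**Figure D1:**
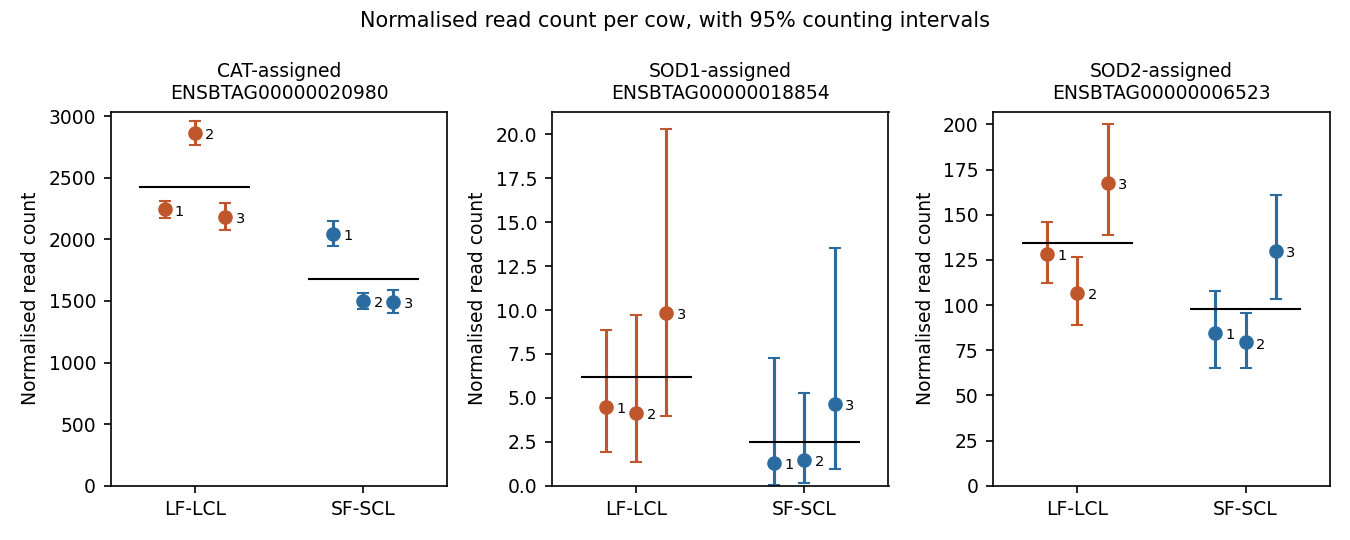
Normalised read count (vertical axes, linear, from 0) of the CAT-assigned, SOD1-assigned and SOD2-assigned rows in each cow, by regimen. Points are cows numbered by replicate, vertical bars are 95% Poisson intervals (counting error only) and horizontal lines are group means. The CAT-assigned values of the regimens do not overlap, whereas SF-SCL replicate 3 lies within the LF-LCL range for both superoxide dismutase rows.

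LF-LCL cows had a mean of 2430 ± 377 (SD, n = 3) for the CAT-assigned row, compared with 1680 ± 316 (SD, n = 3) for SF-SCL cows. The log2 fold change of LF-LCL over SF-SCL was 0.54 ± 0.17 (SE; 95% interval 0.15 to 0.92, or 1.11-fold to 1.89-fold). Its unadjusted limma p was 0.0117 and its adjusted p 0.16, which placed it at rank 911 of 12535 genes. An exact two-sided permutation test of its 3 against 3 values gave p = 0.1, the smallest this design allows. Between cows of different regimens the fold ran from 1.07 to 1.92 over 9 pairs. Between cows of the same regimen it reached 1.37, so 0 of 6 such pairs exceeded the ratio of the group means (1.45). The ratio of the means thus exceeded every fold between cows of one regimen, but the row did not pass adjustment over all genes. By absolute log2 fold change it lay at the 74.7th percentile of tested genes. Without SF-SCL replicate 3 the log2 fold change was 0.46 (limma, adjusted p = 0.245).

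The SOD2-assigned row was measured with 475 reads in LF-LCL and 258 in SF-SCL, and its groups overlapped. Its normalised read count was 128, 107 and 167 in LF-LCL replicates 1, 2 and 3. It was 84.6, 79.3 and 130 in SF-SCL replicates 1, 2 and 3. SF-SCL replicate 3 was above 2 of the 3 LF-LCL cows, while the other SF-SCL cows were below all of them. Across regimens 7 of 9 pairs had the LF-LCL cow higher.

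For the SOD2-assigned row LF-LCL cows averaged 134 ± 30.9 (SD, n = 3) and SF-SCL cows 97.9 ± 27.8 (SD, n = 3). Its log2 fold change was 0.46 ± 0.25 (SE; 95% interval -0.12 to 1.04), and the adjusted limma p was 0.408 (unadjusted 0.104). The exact two-sided permutation test gave p = 0.3. Among cows of the same regimen, 3 of 6 pairs differed by more than the ratio of the means, which was 1.37, and the largest such difference was 1.64-fold. This difference did not exceed the spread between cows, and the interval, from 0.921-fold to 2.05-fold, includes no change as well as a doubling. Leaving out SF-SCL replicate 3 raised the log2 fold change to 0.68 (limma, adjusted p = 0.181, unadjusted 0.0217), and leaving out LF-LCL replicate 3 lowered it to 0.29 (limma, adjusted p = 0.664).

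The SOD1-assigned row was close to the detection limit in every library. It had 8, 5 and 7 reads in LF-LCL replicates 1, 2 and 3, and 1, 2 and 3 reads in SF-SCL replicates 1, 2 and 3, which is 26 reads in all. SOD1 is known as an abundant enzyme made in nearly all cells, and a row with 12.1% of tested genes below it by mean read count goes against that label. Whether the identifier belongs to SOD1 in the annotation the authors used, and whether reads of a near-identical copy were left uncounted, was not tested. Its values are therefore given as those of the identifier and not as the level of SOD1 in the endometrium.

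As normalised read counts, the SOD1-assigned values were 4.50, 4.16 and 9.85 in LF-LCL replicates 1, 2 and 3. They were 1.30, 1.45 and 4.64 in SF-SCL replicates 1, 2 and 3. All 3 SF-SCL libraries had no more than 3 reads, and SF-SCL replicate 3 was above 2 of the LF-LCL cows. The 95% counting intervals in SF-SCL replicates 1, 2 and 3 were 0.025 to 5.57, 0.24 to 7.22 and 0.62 to 8.77 reads. The fitted log2 fold change was 1.09 ± 0.58 (SE; 95% interval -0.24 to 2.42; limma, adjusted p = 0.392, unadjusted 0.0951), and the exact two-sided permutation test of the values gave p = 0.3. Reads summed to 20 for LF-LCL cows against 6 for SF-SCL cows, and their ratio corrected for library size was 2.52, with a counting interval of 0.976 to 7.67. No difference between regimens was detected for this row, with few reads and 3 cows per regimen. The large fitted fold depended on the constant added before taking logarithms, with log2 fold changes of 0.57 for an added 5 and 1.41 for an added 0.1. Without SF-SCL replicate 3 the log2 fold change was 1.51 (limma, adjusted p = 0.231).

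**Figure D2:**
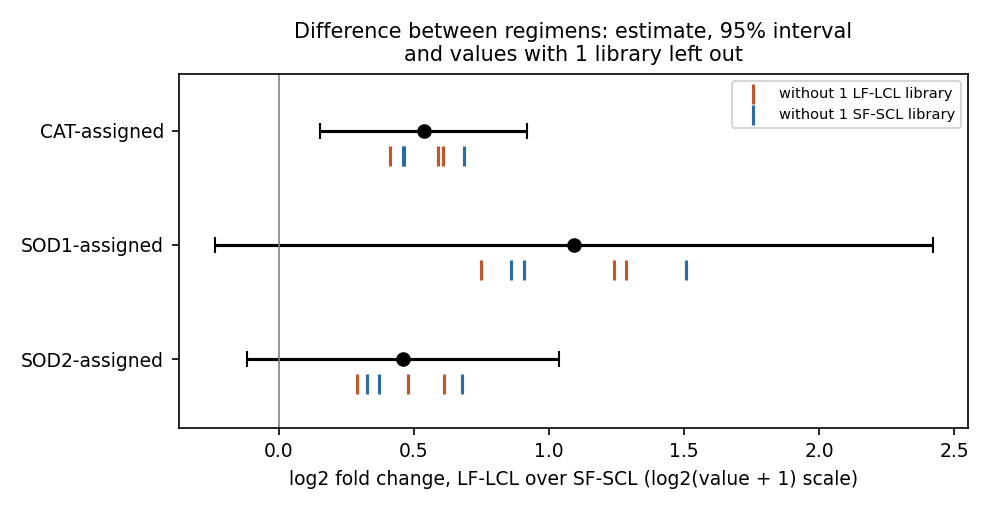
Fitted log2 fold change of LF-LCL over SF-SCL on the log2(value + 1) scale (horizontal axis) for the 3 rows. Black points and bars are the limma estimate and its 95% interval with all 6 libraries, and coloured ticks are the estimates with 1 library of the named regimen left out. All estimates lie above 0, and the CAT-assigned interval (0.15 to 0.92) excludes 0 before adjustment over all genes, whereas the other intervals include it.

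The rows differed in how much of their spread between cows counting alone would give. Within regimens the SD of log2(value + 1) was 0.239 for the CAT-assigned row, against 0.034 from Poisson counting. For the SOD2-assigned row it was 0.355, against 0.139 from counting. For the SOD1-assigned row it was 0.661, against 0.604, so counting equalled 83.7% of its within-regimen variance, compared with 2.03% for the CAT-assigned and 15.4% for the SOD2-assigned row. The remaining spread of the CAT-assigned and SOD2-assigned rows lay between cows or in sample handling, which cannot be told apart. With the tested genes divided into tertiles by mean read count, the CAT-assigned spread was above the median of its upper tertile (0.165) and the SOD2-assigned spread above that of the middle tertile (0.26). The SOD1-assigned spread was close to the median of the lower tertile (0.674).

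Within each regimen the cow with the highest superoxide dismutase values had the lowest CAT-assigned value. Whether counting error separates that cow from the next in order was not tested, and overlap of their counting intervals does not decide it. LF-LCL replicate 3 was highest of its group for the SOD1-assigned and SOD2-assigned rows and lowest for the CAT-assigned row. SF-SCL replicate 3 showed the same order, but its CAT-assigned value (1495) was nearly equal to that of SF-SCL replicate 2 (1500). Its SOD1-assigned row had 3 reads, against 1 and 2 in SF-SCL replicates 1 and 2. In both regimens the 95% counting interval of replicate 3 overlapped that of the next cow for each of the 3 rows, and for the SOD1-assigned row it overlapped those of both other cows. These libraries were also the shallowest of their groups, with 3219678 and 2896663 reads, and the part of depth in this order was not tested.

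**Figure D3:**
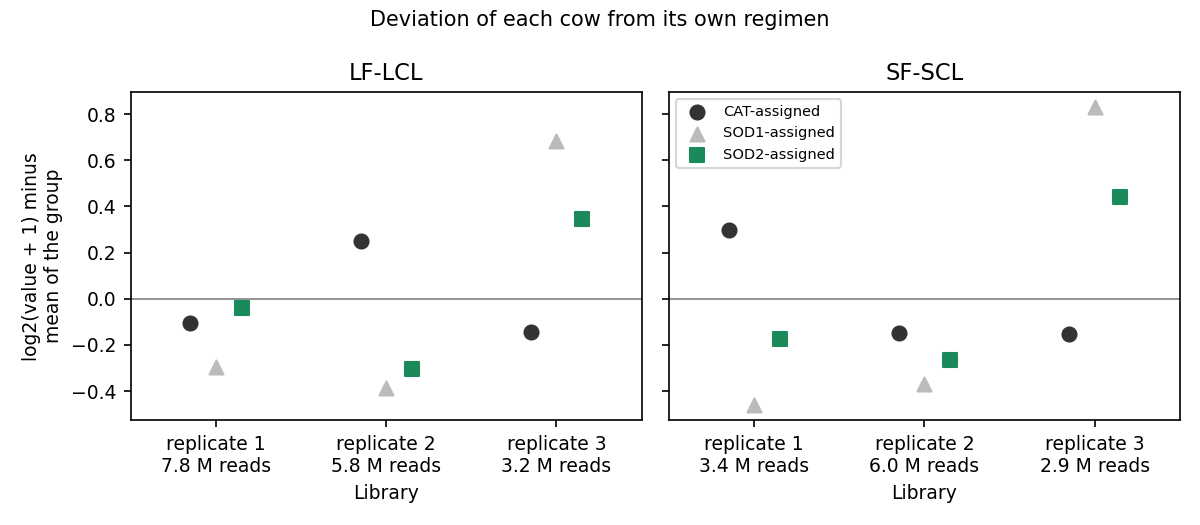
Deviation of each cow from the mean of its own regimen, in log2(value + 1), for the 3 rows, with the reads per library under each replicate. Replicate 3 of each regimen lies above 0 for the superoxide dismutase rows (0.34 and 0.44 for the SOD2-assigned row) and below 0 for the CAT-assigned row (-0.14 and -0.15). LF-LCL replicate 1 (-0.10) and SF-SCL replicate 2 (-0.15) also lie below 0 for the CAT-assigned row.

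Ratios of values within a library do not depend on library scaling, and gene length cancels when such a ratio is compared between cows. The log2 ratios were taken after adding 1 to each value, so for them neither holds exactly. The departure is largest for the SOD1-assigned row, whose values are low. The ratio of CAT-assigned to SOD2-assigned normalised reads was 17.5, 26.9 and 13.0 in LF-LCL replicates 1, 2 and 3. In SF-SCL it was 24.2, 18.9 and 11.5. The cows of the regimens were interleaved. The regimens differed by 0.08 in mean log2 ratio, with an SD of 0.52 in LF-LCL and 0.54 in SF-SCL (exact two-sided permutation test, p = 0.8; 0.8 after Benjamini-Hochberg adjustment over 3 ratios). This difference turned to -0.20 without LF-LCL replicate 2 and to -0.22 without SF-SCL replicate 3. Thus no shift in the balance of the CAT-assigned against the SOD2-assigned transcript was detected, and the spread between cows exceeded the difference. The ratios with the SOD1-assigned row rest on its few reads and moved with single libraries and with the added constant. The mean log2 ratio of CAT-assigned to SOD1-assigned differed by -0.55 (exact two-sided permutation test, p = 0.4; adjusted 0.6). It differed by -0.14 without LF-LCL replicate 3, -0.17 without SF-SCL replicate 1, -0.87 without LF-LCL replicate 2 and -1.05 without SF-SCL replicate 3. With an added 5 it differed by -0.04, and with an added 0.1 by -0.88. That of SOD1-assigned to SOD2-assigned differed by 0.63 (exact two-sided permutation test, p = 0.2; adjusted 0.6), by 0.83 without SF-SCL replicate 3, by 0.13 with an added 5 and by 0.95 with an added 0.1.

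The genes most like these rows across the 6 libraries were found by Pearson's r of log2(value + 1), among genes with a mean of at least 50. For the CAT-assigned row this was ENSBTAG00000000074 (r = 0.99), with normalised read counts of 314, 348 and 301 in LF-LCL replicates 1 to 3 and of 286, 242 and 252 in SF-SCL replicates 1 to 3. It was likewise not called (log2 fold change 0.30, standard error 0.13; limma, adjusted p = 0.279). For the SOD2-assigned row it was ENSBTAG00000001154 (r = 0.99), with 206, 85.8 and 457 in LF-LCL replicates 1 to 3 and 33.8, 24.7 and 232 in SF-SCL replicates 1 to 3. This gene followed the same order of cows over a wider range and was not called either (log2 fold change 1.77, standard error 0.86; limma, adjusted p = 0.343). An r above 0.9 was reached by 104 of 7921 genes for the CAT-assigned row and by 132 for the SOD2-assigned row, so with 6 points these are 2 of many. No such gene is named for the SOD1-assigned row, whose order of cows rests on so few reads.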

How the data were processed

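The deposited table holds a signal per gene and cow, namely read counts that the authors divided by a size factor per library. This was read from the values, which are whole multiples of 1 read to within 0.01 for 100% of entries. The submitters' processing notes list DESeq 1.12.1, HTSeq 0.5.4p2, SAMtools 0.1.18, Bowtie2 2.1.0 and CASAVA 1.8.2 with no role for each. Genome build, annotation release and strand setting: not given in the sources used here. Genes with a mean of at least 1 were tested by limma (3.58.1, under R 4.3.3) after adding 1 and taking log2, with a trended prior variance, regimen as the sole factor, and p-values adjusted over 12535 genes (Benjamini-Hochberg, threshold 0.05). Such folds understate the change of low genes. On the recovered reads, DESeq2 1.42.0, limma-voom and the quasi-likelihood test of edgeR 4.0.16 served as alternatives, beside other pseudocounts, filters and scalings and leaving out each library. The fits were tested on simulated data. Single values and ratios were compared by exact permutation (scipy 1.17.1). Counting intervals are 95% Poisson or Clopper-Pearson intervals and cover counting error only, since reads are not independent molecules. The labels describe separate cows and name no batch, so nothing could be computed within batches.

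The members, lists and tests were chosen with earlier results of these data known. Named genes are the 3 members and, for each, the gene of most similar pattern. The gene chosen for the SOD1-assigned row is left out for its low reads. Lists of other antioxidant, peroxisomal and cell type genes were drawn up by symbol and not analysed here, since identifiers could not be paired with symbols. Coordinates in the RefSeq gene table served only to find which genes neighbour each other, and no sequences are used here.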

Additional observations from a re-analysis of the deposited data

How the results depend on the processing

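The 3 rows kept a higher fitted value in LF-LCL in all 45 values under alternatives, and 0 of the 45 passed an adjusted p under 0.05. With all 6 libraries, the log2 fold change ranged from 0.48 to 0.55 for the CAT-assigned row (adjusted p = 0.0738 with DESeq2 to 0.519 with limma without a filter) and from 0.40 to 0.48 for the SOD2-assigned row (adjusted p = 0.321 to 0.84). For the SOD1-assigned row it ranged from 0.57 to 1.41 (adjusted p = 0.38 to 0.785). That row was removed by the filters of edgeR and limma-voom and by a minimum mean of 10, and DESeq2 gave it no adjusted p. Leaving out 1 library gave log2 fold changes of 0.41 to 0.69 (CAT-assigned), 0.75 to 1.51 (SOD1-assigned) and 0.29 to 0.68 (SOD2-assigned). The mean log2 ratio of CAT-assigned to SOD2-assigned reads reversed without LF-LCL replicate 2 (-0.20) and without SF-SCL replicate 3 (-0.22), and ranged up to 0.32. Over all genes, limma called 121, 84 of them higher in LF-LCL. The count was 4 with no filter on low values, 686 with DESeq2 and 500 at an adjusted p under 0.1, and the cause was not tested. It ranged from 0 to 370 with 1 library left out, the highest without SF-SCL replicate 3. In the fits with 0 calls, without LF-LCL replicate 2 and without SF-SCL replicate 2, limma gave 1865 and 1580 genes at an unadjusted p under 0.05. No paired analysis was possible because the labels describe separate cows and give no pairing between regimens.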
